A study of Mus musculus with 6 samples.

Results

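The VEGF and angiopoietin signals described here are 10 genes of the 33696 measured, chosen by symbol: the ligands Vegfa, Vegfc, Vegfd and Pgf, the angiopoietins Angpt1 and Angpt2, and the receptors Kdr, Flt1, Flt4 and Tek. Each symbol matched 1 row of every count matrix (Vegfa ENSMUSG00000023951, Vegfc ENSMUSG00000031520, Vegfd ENSMUSG00000031380, Pgf ENSMUSG00000004791, Angpt1 ENSMUSG00000022309, Angpt2 ENSMUSG00000031465, Tek ENSMUSG00000006386, Kdr ENSMUSG00000062960, Flt1 ENSMUSG00000029648, Flt4 ENSMUSG00000020357). Transcripts were counted in single cells (scRNA-seq) of mouse Achilles tendon of Gli1-CreERT2; Ai9 mice, all given tamoxifen, in which Cre driven by the Gli1 locus switches on a tdTomato reporter. The reporter marks cells that carried Cre activity and their descendants, not the Gli1 transcript at the time of sorting. Gli1+ and Gli1- cells were sorted from uninjured tendon and from tendon 7 and 21 days after tenotomy (7 dpi and 21 dpi), with 24 mice in all, 8 per time point, and 1 library per sort and time point. Every difference between time points or sorts is therefore a difference between 2 libraries of pooled animals and was not tested. Intervals in brackets are exact 95% intervals that cover counting error only. Ages of the mice are not given in the sources used here.

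The VEGF family acts on endothelial tyrosine kinase receptors. Vegfa signals mainly through Kdr (VEGFR2), which drives endothelial division, migration and permeability, while Flt1 (VEGFR1) binds Vegfa and Pgf strongly and acts largely as a decoy. Vegfc and Vegfd bind Flt4 (VEGFR3), the main receptor of lymphatic endothelium, and can also bind Kdr. Angpt1, made by perivascular and mesenchymal cells, activates Tek (TIE2) and keeps vessels quiet, and Angpt2, stored in endothelium, mostly competes with it and loosens vessels for remodelling. Healthy tendon is poorly vascularized, and vessels grow into it after injury.

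Promoter sequences are shown for the 4 receptors, since transcription of endothelial receptor genes is known to depend on ETS factors, whose core motif is GGAA. The windows run from 250 bases before to 50 bases after the annotated start, come from RefSeq on GRCm38.p6 and are written 5' to 3' on the gene's strand, with GGAA and its complement TTCC in capitals. Kdr lies at chr5:75978406-75978705 (minus strand), Flt1 at chr5:147725962-147726261 (minus), Tek at chr4:94739039-94739338 (plus) and Flt4 at chr11:49609429-49609728 (plus).
Kdr: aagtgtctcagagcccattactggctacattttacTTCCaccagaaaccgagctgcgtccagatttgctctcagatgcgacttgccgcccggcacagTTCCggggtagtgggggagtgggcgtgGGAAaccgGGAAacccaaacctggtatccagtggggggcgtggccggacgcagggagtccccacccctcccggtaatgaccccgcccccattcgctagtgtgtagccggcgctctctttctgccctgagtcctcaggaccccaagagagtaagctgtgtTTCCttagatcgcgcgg
Flt1: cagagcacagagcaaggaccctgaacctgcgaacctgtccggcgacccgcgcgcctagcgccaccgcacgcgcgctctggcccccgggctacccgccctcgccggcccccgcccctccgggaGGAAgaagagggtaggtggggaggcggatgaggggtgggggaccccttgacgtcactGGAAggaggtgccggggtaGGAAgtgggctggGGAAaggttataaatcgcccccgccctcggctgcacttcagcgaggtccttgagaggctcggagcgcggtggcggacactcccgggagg
Tek: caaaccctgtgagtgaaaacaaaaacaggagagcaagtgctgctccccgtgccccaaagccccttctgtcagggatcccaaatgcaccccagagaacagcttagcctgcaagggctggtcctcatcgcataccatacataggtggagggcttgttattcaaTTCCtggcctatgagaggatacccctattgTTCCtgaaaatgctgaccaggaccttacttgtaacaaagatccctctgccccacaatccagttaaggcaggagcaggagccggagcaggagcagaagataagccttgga
Flt4: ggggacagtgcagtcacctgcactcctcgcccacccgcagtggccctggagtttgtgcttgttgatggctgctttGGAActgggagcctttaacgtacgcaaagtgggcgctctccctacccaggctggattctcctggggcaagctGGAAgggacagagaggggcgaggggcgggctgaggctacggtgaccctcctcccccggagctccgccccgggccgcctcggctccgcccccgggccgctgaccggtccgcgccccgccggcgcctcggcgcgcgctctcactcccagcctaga

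The Kdr window held 5 matches on both strands together, the Flt1 window 4, and the Tek and Flt4 windows 2 each. Of 32851 promoters of the same length, 28.6% held at least 5 matches, 46.3% at least 4 and 84.6% at least 2, so the receptor windows did not stand apart from promoters in general. Among the ligands, the Vegfd window held 4 matches, the Vegfc window 2, the 2 Vegfa windows 6 and 3, and the 2 Pgf windows 2 and 1. Of the 10 genes, 8 were matched to a promoter entry. A match is a description of letters and not of factor binding.

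The 6 libraries kept 7057 to 10882 cells and 53564928 to 107887022 UMIs (unique molecular identifiers, 1 per captured transcript), with medians of 4297 to 9775 UMIs per cell. The uninjured Gli1+ library stood apart: it alone held immune cells in number (2929 lymphoid and 459 myeloid cells of 7057), and its cells were of both sexes. By Xist and Y-linked transcripts, cells with only Y-linked transcripts made up 70.9% and 70.5% at 7 dpi and 0.112% and 0.0552% at 21 dpi (Gli1+ and Gli1-), while Xist-only cells made up 0.0108% and 0.0101% and then 92.7% and 90.5%. Uninjured Gli1- cells had Y-linked transcripts alone in 59.6% and Xist alone in 0%. The labels state equal sexes over all mice, but the libraries differ in sex: in every comparison of 21 dpi with 7 dpi, and of Gli1- 21 dpi with Gli1- uninjured tendon, sex and time point cannot be told apart. A check in cells of 1 sex was run for Gli1+ cells against uninjured tendon alone. Vegfd is X-linked. The libraries shared 27 to 75 cell barcodes in pairs, at most 0.534% of the smaller library. Over whole libraries, Gli1 itself was at 2.17 to 7.64 counts per 1000000 UMIs (CPM). It was no higher in the Gli1+ than in the Gli1- library of uninjured tendon (6.55 and 7.64 CPM). These 2 libraries differed in make-up, the former with its many lymphoid cells, and Gli1 was not compared within a class.

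Cells were grouped into classes by clustering and marker genes, and each gene is given as CPM over the summed UMIs of a class. Mesenchymal cells (1510, 6086 and 7262 Gli1+ cells and 5553, 7711 and 6861 Gli1- cells in uninjured tendon, 7 dpi and 21 dpi) had none of the 6 mesenchymal markers at 0, with a summed level of 24518 to 52626 CPM. Blood endothelial cells numbered 371, 159 and 254 (Gli1+) and 3512, 978 and 1623 (Gli1-), with all 7 endothelial markers at a summed 4229 to 5810 CPM. Mural cells (pericytes and smooth muscle, 118 to 988 per library), lymphatic endothelial cells (120, 67 and 225 Gli1- cells, at most 31 in a Gli1+ library), osteochondral cells at 21 dpi (315 and 421) and epidermal cells also had none of their markers at 0 where at least 50 cells were present. Classes other than mesenchymal were named from the same markers, so this describes them and does not test their names. A class led by Ptx4 and carrying tenocyte markers (199 to 722 cells) and, among Gli1- cells, a class of mural cells with endothelial markers (98 to 669) were kept apart.

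**Figure D1:**
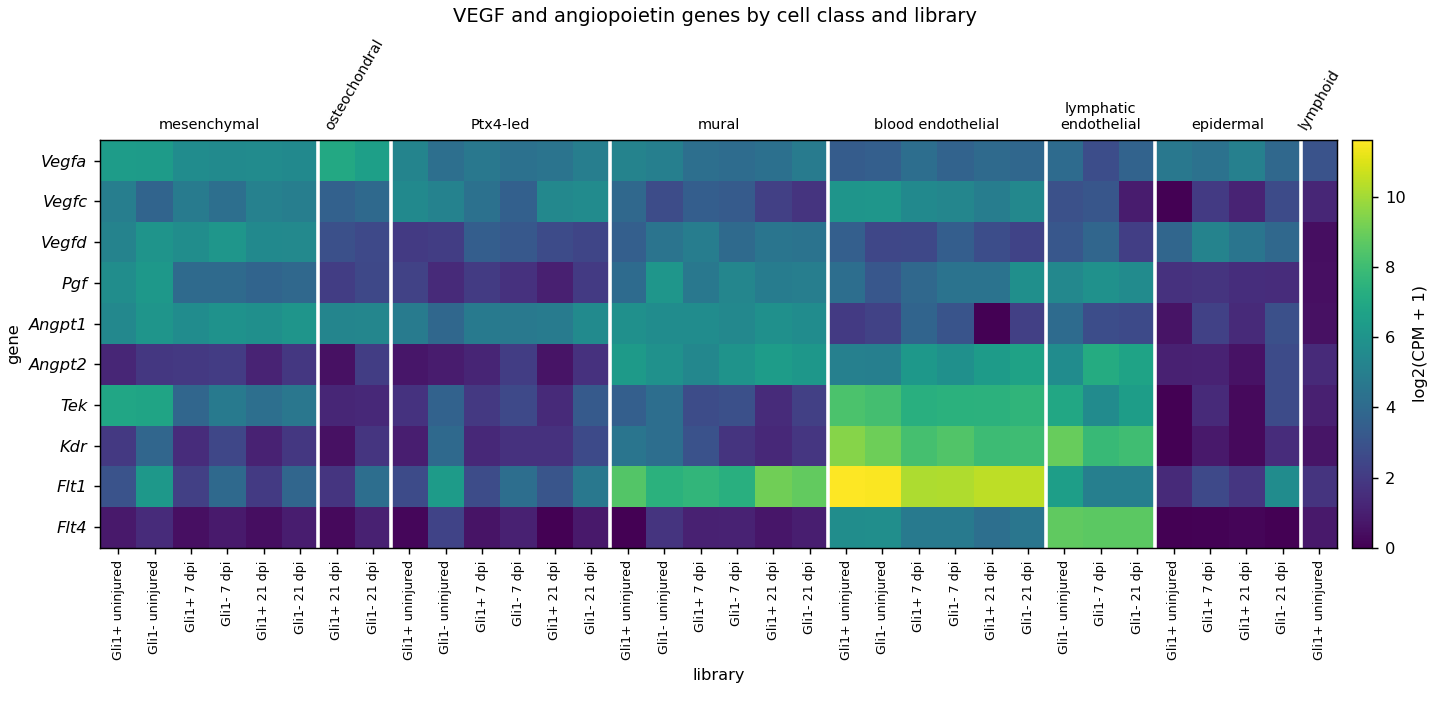
Level of the 10 genes, as log2(CPM + 1) by color, in each class with at least 50 cells (columns, 1 per class and library). The receptors Flt1 and Kdr are brightest in blood endothelium, Flt4 in lymphatic endothelium, Angpt2 in mural and endothelial cells, Vegfd in mesenchymal cells and Vegfa in osteochondral cells at 21 dpi.

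Ligand transcripts came mostly from mesenchymal cells. These held 58.9%, 85.8% and 77.1% of Vegfa UMIs in Gli1+ libraries (uninjured, then 7 dpi and 21 dpi), and 91.5%, 94.7% and 76.0% in the Gli1- libraries. Their share of Vegfd UMIs ran from 80.3% to 97.9% and of Angpt1 UMIs from 68.9% to 95.9% over the 6 libraries. Mesenchymal cells made up 21.4% of cells in the uninjured Gli1+ library and 51.0% to 77.6% in the others, and these shares also carry their number.

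Vegfc had a second source in endothelium. In uninjured Gli1- tendon, blood endothelial cells held 54.8% of Vegfc UMIs and mesenchymal cells 33.2%. At 7 and 21 dpi the endothelial share was 7.59% and 14.8%, and the mesenchymal share 88.7% and 78.2%, while the share of endothelial cells among all Gli1- cells went from 32.3% to 9.85% and 14.9%. In uninjured Gli1+ tendon the Ptx4-led class held a further 28.2% of Vegfc UMIs.

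Pgf and Angpt2 had vascular sources that differed by time point. Mesenchymal cells held 92.1% of Pgf UMIs in uninjured Gli1- tendon and 52.2% at 21 dpi, when blood endothelial cells held 28.0% and mural cells 14.7%. Angpt2 was held in part by mural cells (27.5%, 12.3% and 59.9% in Gli1+, 11.4%, 20.9% and 32.7% in Gli1-) and blood endothelial cells (29.3%, 15.7% and 21.5%, and 51.6%, 27.0% and 49.7%). Other classes held more than mural cells in uninjured Gli1- tendon, namely mesenchymal cells with 14.8% and mural cells with endothelial markers with 14.3%, and lymphoid cells held 17.1% in uninjured Gli1+ tendon. At 7 dpi mesenchymal cells, at a low level per UMI but 65.8% and 77.6% of cells, held the largest Angpt2 share, 61.3% in Gli1+ and 39.3% in Gli1- libraries. Osteochondral cells, 3.22% of Gli1+ and 3.87% of Gli1- cells at 21 dpi, held 12.3% of Vegfa UMIs in both sorts.

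Receptor transcripts other than those of Tek came largely from vessel cells. Blood endothelial cells held 52.5% to 89.2% of Kdr UMIs over the 6 libraries, although they were only 1.72% to 32.3% of cells. Mesenchymal cells held 2.49% to 33.8% of Kdr UMIs, most in Gli1+ cells at 7 dpi, at levels read below as background. Lymphatic cells held 28.3% to 60.7% of Flt4 UMIs, blood endothelium 22.1% to 57.4% and mesenchymal cells 4.70% to 35.1%, with 27 of 77 UMIs in mesenchymal and 17 in blood endothelial cells of the Gli1+ library at 7 dpi. Mesenchymal cells held the largest share of Tek UMIs in 5 libraries (52.8% to 84.9%) and 44.6% in the Gli1- library at 21 dpi, where blood endothelium held 50.1%.

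**Figure D2:**
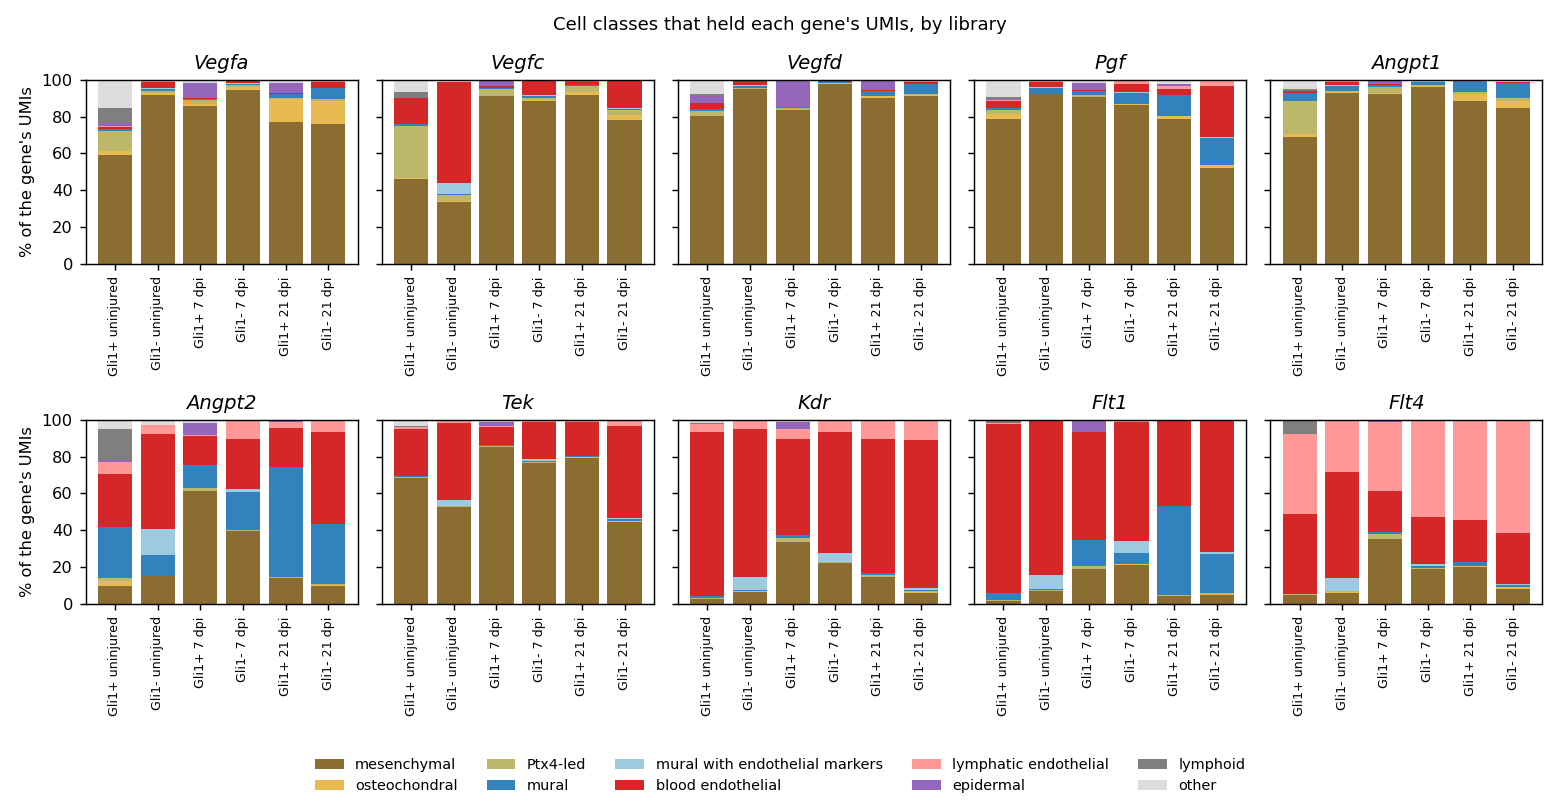
Share of each gene's UMIs (y axis, %) held by each cell class in each library (bars). Mesenchymal cells fill most of the bars of Vegfa, Vegfd, Angpt1 and Tek, and endothelial cells most of those of Kdr; mural cells take 48.3% of Flt1 UMIs in Gli1+ cells at 21 dpi.

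Within mesenchymal cells, the VEGF receptor ligands Vegfa and Pgf were lower after injury in both sorts. Vegfa stood at 84.7 CPM [80.1-89.5] in uninjured Gli1+ cells and at 49.5 and 48.6 CPM at 7 and 21 dpi, and at 83.5, 46.6 and 45.1 CPM among Gli1- cells. The log2 ratios to uninjured tendon were -0.78 and -0.80 for Gli1+ and -0.84 and -0.89 in Gli1- cells, so Vegfa was below its uninjured level in all 4 comparisons but not past 2-fold. With means of each cell's own CPM, the ratio of Gli1+ cells at 21 dpi was -1.04, past 2-fold. Pgf, which binds Flt1 but not Kdr, was at 50.6 CPM [47.1-54.3], 15.04 and 12.5 CPM among Gli1+ and at 72.7 CPM [69.9-75.5], 15.1 and 14.0 CPM among Gli1- cells. Its log2 ratios were -1.75 and -2.02 for Gli1+ and -2.27 and -2.37 in Gli1- cells. The uninjured and injured intervals of Pgf did not overlap in either sort.

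The lymphatic ligands followed other courses. Vegfc in Gli1- mesenchymal cells stood at 12.5 CPM [11.3-13.7], 17.8 and 30.5 CPM [29.2-31.9], a log2 ratio of 1.29 at 21 dpi (where sex differed too), whereas Gli1+ cells held 30.4, 27.6 and 33.6 CPM. In uninjured tendon Vegfc was thus higher in Gli1+ than in Gli1- mesenchymal cells (log2 ratio 1.28), but these libraries also differed in sex. At 7 dpi both libraries held mostly cells with Y-linked transcripts alone. Vegfc was then at 27.6 CPM [26.3-28.9] in Gli1+ and 17.8 CPM [17.0-18.7] in Gli1- cells. By 21 dpi, where both libraries held mostly cells with Xist, the sorts were close. The part of sex in these values was not tested. Vegfd was at 36.1, 51.2 and 45.4 CPM among Gli1+ and at 64.6, 69.0 and 43.4 CPM among Gli1- cells, with no comparison past 2-fold. With classes from each cell's own markers, however, Vegfd in Gli1+ cells at 7 dpi had a log2 ratio of 1.05. In cells of 1 sex the Gli1+ log2 ratios of Vegfd were 0.68 at 7 dpi and 0.30 at 21 dpi, beside 0.50 and 0.33 over all cells. Angpt1, the Tek agonist, was the steadiest ligand, at 42.5, 49.3 and 54.1 CPM and at 65.3, 59.0 and 66.6 CPM (log2 ratios -0.15 to 0.35).

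**Figure D3:**
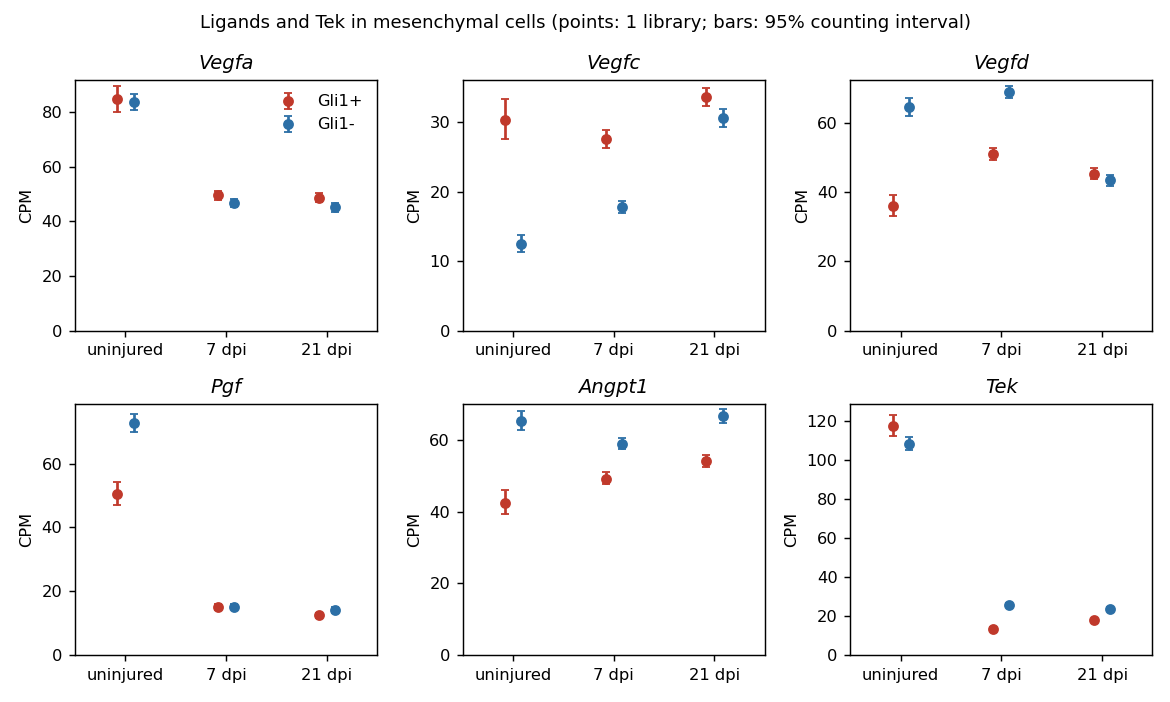
CPM (y axis) of the ligands Vegfa, Vegfc, Vegfd, Pgf and Angpt1 and the receptor Tek in mesenchymal cells at each time point (x axis), for Gli1+ and Gli1- libraries (points) with exact 95% counting intervals (bars). Pgf and Tek are lower at 7 and 21 dpi than in uninjured tendon in both sorts, and Angpt1 stays between 42.5 and 66.6 CPM.

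Tek, known mainly as an endothelial receptor, had the largest difference of the members in Gli1+ mesenchymal cells. It stood at 118 CPM [112-123] in uninjured Gli1+ cells, 13.5 CPM [12.6-14.4] at 7 dpi and 17.7 CPM [16.7-18.7] at 21 dpi, and at 108 CPM [105-112], 25.7 CPM [24.7-26.8] and 23.6 CPM [22.5-24.8] among Gli1- cells. Both uninjured libraries were high and all 4 injured ones low. The log2 ratios were -3.12 (interval -3.24 to -3.01) and -2.73 for Gli1+ and -2.08 and -2.20 in Gli1- cells. In cells of 1 sex, the Gli1+ ratios were -3.26 and -2.68. After each cell was thinned to 2000 UMIs, 17.1% and 16.9% of uninjured mesenchymal cells (Gli1+ and Gli1-) held a Tek UMI, against 3.30% and 5.84% at 7 dpi and 3.66% and 5.27% at 21 dpi. Unthinned shares ran from 9.69% to 38.0% at median depths of 5799 to 11694 UMIs, and thinning left out 26 to 203 cells a library. Lymphoid cells of the uninjured Gli1+ library, which should lack Tek, gave 0.172% at a median depth of 7708 UMIs.

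RNA set free by broken endothelial cells could place receptor UMIs in mesenchymal cells, so the levels were set against tracers. The endothelial genes Cdh5, Pecam1, Egfl7 and Esam stood in mesenchymal cells at no more than 0.302% to 2.91% of their blood endothelial level, depending on the library. Tek was at 9.85 to 33.4 times the level that the highest tracer would give. Kdr was at 0.273 to 1.53 times and Flt1 at 0.155 to 0.949 times that level, so the UMIs of Kdr (1.16 to 13.2 CPM) and Flt1 (2.95 to 73.3 CPM) in mesenchymal cells are read as background. Vegfc and Pgf were at no less than 6.23 and 20.9 times that level.

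The mesenchymal class was held by different clusters at different times. Among Gli1+ cells, cluster 4 (tendon stem cell-like) held 1378 of the uninjured cells, clusters 0 and 3 held 4040 and 1853 cells at 7 dpi, and clusters 1, 2, 11 and 4 held 2872, 2756, 725 and 505 cells at 21 dpi. Among Gli1- cells, clusters 3, 2 and 6 held 3085, 1398 and 1031 cells of uninjured tendon, clusters 4, 5, 2 and 6 held 3071, 2579, 1370 and 318 cells at 7 dpi, and clusters 1, 6, 2 and 10 held 3947, 976, 741 and 692 cells at 21 dpi. Levels of the class therefore mix a change of clusters with changes inside them.

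Inside clusters present at several times, Tek followed no single course. In Gli1+ cluster 4 Tek went from 127 CPM [121-133] without injury to 44.8 CPM [37.0-53.7] at 21 dpi, a log2 ratio of -1.51. At the finer division the same comparison gave -0.55 (interval -0.91 to -0.21) in cluster 8 and -0.94 in cluster 13, so the 2-fold difference rested on the coarser division. In Gli1- cluster 2, led by C7 and Gdf10 and well filled at all 3 times, Tek was at 35.0 CPM [31.2-39.1], 49.4 CPM [44.6-54.6] and 65.4 CPM [56.4-75.4] (log2 ratios 0.50 and 0.90), higher after injury and thus opposite to the class. In Gli1- cluster 6, the stem cell-like cluster with Dpp4, it was at 203 CPM [193-213], 216 CPM [196-238] and 100.3 CPM [93.5-107], a log2 ratio of 0.09 at 7 dpi and -1.02 at 21 dpi. In Gli1- cluster 3, led by Grm8, it was at 102, 47.4 and 162 CPM. Among clusters found mainly after injury, the stem cell-like Gli1+ cluster 2 held Tek at 43.5 CPM at 21 dpi, but others held little. These were the tenocyte-like cluster 1 (2.69 CPM among Gli1+, 11.5 CPM among Gli1- cells at 21 dpi), the Crabp1-led clusters (5.05 CPM in Gli1+ cluster 3 and 9.26 CPM in Gli1- cluster 4 at 7 dpi) and the Saa3-led clusters (0.699 CPM in Gli1+ cluster 11 and 3.21 CPM in Gli1- cluster 10 at 21 dpi). Tek was therefore low in tenocyte-like cells, but its higher levels were not confined to stem cell-like clusters. At 21 dpi Gli1- clusters 3 and 2, not named stem cell-like, held 162 and 65.4 CPM. The stem cell-like clusters held 100.3 CPM (Gli1- cluster 6) and 43.5 and 44.8 CPM (Gli1+ clusters 2 and 4).

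Pgf, Vegfa and Vegfc also differed in course between clusters. In the stem cell-like Gli1- cluster 6, Pgf was at 78.1, 58.3 and 28.9 CPM (log2 ratios -0.42 and -1.44) and Vegfa at 118, 50.3 and 37.1 CPM (-1.23 and -1.67). In the Grm8-led cluster 3, Pgf was at 91.6, 59.9 and 55.0 CPM and Vegfa at 65.7, 66.2 and 78.5 CPM, so Vegfa was not lower there. Vegfc in cluster 6 was at 7.04, 7.97 and 27.8 CPM (log2 ratio 1.98 at 21 dpi, interval 1.56 to 2.42). In Gli1- cluster 2, Pgf was at 32.6, 57.3 and 27.0 CPM (0.82 and -0.27), Vegfa at 88.0, 45.0 and 43.3 CPM (-0.97 and -1.02) and Vegfc at 17.1, 8.82 and 25.3 CPM (-0.95 and 0.57). Pgf was therefore higher there at 7 dpi, where the class was lower.

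Among Gli1+ clusters, which could be compared at 21 dpi only, cluster 4 had log2 ratios of -0.77 for Pgf and -0.93 for Vegfa, and cluster 1, with 50 uninjured cells, of -1.64 and -0.07. In the finer cluster 8 they were -0.11 for Pgf (interval -0.53 to 0.28) and -0.55 for Vegfa, against -2.02 and -0.80 in the class. Vegfc was lower inside these Gli1+ clusters, with log2 ratios of -1.16 (interval -1.63 to -0.64) in cluster 1, -0.62 in cluster 4 and -0.94 in the finer cluster 8, opposite in direction to Gli1- cluster 6.

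Single clusters also held the highest ligand levels. The highest Vegfa among mesenchymal clusters of the Gli1+ cells at 21 dpi was in the Saa3-led cluster 11 (112 CPM [107-118]), with 103 CPM [97.4-108] in its Gli1- counterpart, cluster 10. Vegfd was high in some stem cell-like clusters, at 130, 97.1 and 80.8 CPM in Gli1- cluster 6 and 91.2 CPM in the stem cell-like Gli1+ cluster 2 at 21 dpi, against 22.5 CPM in the tenocyte-like Gli1+ cluster 1. The uninjured Gli1+ mesenchymal class, with 1378 of its 1510 cells in the stem cell-like cluster 4, was at 36.1 CPM. Vegfd was also at 122 CPM in Gli1- cluster 5 at 7 dpi, a cluster led by Klk1 and Pgr.

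Osteochondral cells, which carried chondrocyte and bone markers and were analysed at 21 dpi only, had the highest Vegfa of any class in both sorts. Vegfa was at 128 CPM [117-139] among Gli1+ and 94.5 CPM [86.4-103] among Gli1- osteochondral cells, against 48.6 and 45.1 CPM in mesenchymal cells of the same libraries. The other ligands did not share this. Vegfd was at 6.05 and 4.88 CPM, Pgf at 3.36 and 4.69 CPM, Vegfc at 11.2 and 14.6 CPM and Angpt1 at 38.5 and 39.8 CPM. In cells thinned to 2000 UMIs, 20.7% of Gli1+ and 11.7% of Gli1- osteochondral cells held a Vegfa UMI (53.0% and 44.9% unthinned, median depths 12308 and 11657 UMIs), against 0.996% of uninjured lymphoid cells.

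Smaller sources were few. The Ptx4-led class held Vegfc at 45.3, 19.3 and 42.7 CPM among Gli1+ and 34.4, 10.9 and 47.5 CPM among Gli1- cells, lowest at 7 dpi in both sorts. Among Gli1+ cells this class was mainly cluster 6 in uninjured tendon and at 21 dpi (680 and 407 cells). At 7 dpi it was mainly cluster 12 (716 cells), so different clusters are compared there. Epidermal cells of the Gli1+ libraries held Vegfd at 13.1, 35.8 and 21.7 CPM and, being 1606 cells at 7 dpi, 14.0% of the Vegfd UMIs of that library. Lymphoid cells held Vegfa at 6.96 CPM.

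Mural cells as a class held both Angpt1 and Angpt2. Whether single cells held both was not counted. Angpt2 stood at 78.7, 41.3 and 84.8 CPM among Gli1+ and 58.2, 62.2 and 70.9 CPM among Gli1- mural cells, and Angpt1 at 56.8, 49.1 and 55.4 CPM and at 49.6, 41.7 and 49.5 CPM. Neither angiopoietin was past 2-fold at any time. In mesenchymal cells, by contrast, Angpt2 was at 1.25 to 3.13 CPM, which is 2.12 to 4.99 times the endothelial tracer level. Free RNA from mural cells, with Angpt2 at 41.3 to 84.8 CPM, was not traced.

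Flt1 was also a mural transcript, most of all at 21 dpi. It stood at 364, 203 and 546 CPM [525-567] among Gli1+ and at 172, 159 and 454 CPM [440-468] among Gli1- mural cells, a log2 ratio at 21 dpi of 0.59 and 1.40. The level that the tracers Cdh5 and Pecam1 would give was 136, 17.8 and 6.83 CPM among Gli1+ and 134, 22.4 and 17.1 CPM among Gli1- cells, so Flt1 was near it in uninjured Gli1- tendon and 80.0 and 26.6 times above it at 21 dpi. Thinned shares of mural cells with a Flt1 UMI were 33.3%, 21.5% and 45.1% for the Gli1+ sort and 28.6%, 23.3% and 40.2% for the Gli1- sort (30.3% to 70.5% unthinned, median depths 2892 to 7780 UMIs), and 0.481% of uninjured lymphoid cells held one. Kdr, at 1.49 to 21.9 CPM in mural cells, stayed at 0.351 to 1.52 times the tracer level. The Gli1- mural cells with endothelial markers held Flt1 at 1297, 1015 and 983 CPM and Kdr at 234, 222 and 116 CPM.

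In blood endothelial cells all 4 receptors were below their uninjured level at both times in both sorts. Flt1 stood at 3162, 1182 and 1429 CPM among Gli1+ and at 2985, 1192 and 1422 CPM among Gli1- cells (log2 ratios -1.42, -1.15, -1.33 and -1.07). Kdr was at 741 CPM [704-780], 293 and 251 CPM among Gli1+ and at 537 CPM [523-551], 352 and 258 CPM among Gli1- cells (-1.34, -1.56, -0.61 and -1.06). Tek was at 325 CPM [300-350], 160 and 176 CPM and at 287 CPM [277-297], 172 and 193 CPM (-1.02, -0.89, -0.74 and -0.58). Flt4 was at 50.2, 26.5 and 18.0 CPM and at 53.5, 26.8 and 22.7 CPM (-0.92 and -1.48 for Gli1+, -1.24 for Gli1- cells at 21 dpi, and just short of 2-fold for the latter at 7 dpi). The uninjured intervals of Flt1, Kdr and Tek lay above all injured ones. Several 2-fold calls ended under an alternative while the direction held. With means of each cell's own CPM, the Flt1 ratios were -0.94 for Gli1+ cells at 21 dpi and -0.98 and -0.55 for Gli1- cells, and that of Kdr in Gli1- cells at 21 dpi was -0.70 (-0.93 with TMM factors). The Flt4 ratio of Gli1+ cells at 21 dpi was -0.98 with all barcodes, -0.62 with doublets kept, -0.75 at resolution 0.3 and -0.76 with classes from each cell's own markers, which also brought that of Gli1- cells at 21 dpi to -0.48. Tek in Gli1+ cells at 7 dpi was short of 2-fold with all barcodes (-0.86), joint clustering (-0.97) and TMM factors (-0.99).

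Thinned shares of Flt1 and Kdr were likewise highest in uninjured tendon. Of uninjured blood endothelial cells thinned to 2000 UMIs, 97.6% of both sorts held a Flt1 UMI, against 79.1% and 80.7% at 7 dpi and 78.4% and 81.4% at 21 dpi (Gli1+ and Gli1-). Kdr was found in 69.8% and 60.6% of uninjured cells, in 36.4% and 47.9% at 7 dpi and in 35.1% and 35.2% at 21 dpi. Unthinned, Flt1 was found in 87.4% to 98.7% and Kdr in 49.7% to 88.7% of cells, at median depths of 2222 to 5926 UMIs, and 32 to 1131 cells a library were too shallow to thin. In lymphoid cells the thinned shares were 0.481% and 0.172%.

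Of the ligands made by endothelium itself, Angpt2 was higher after injury in both sorts and Pgf in Gli1- cells. Angpt2 stood at 32.0 CPM [24.7-40.8], 73.2 and 83.2 CPM [70.1-98.0] among Gli1+ and at 31.5 CPM [28.3-35.1], 55.7 and 102 CPM [95.9-109] among Gli1- blood endothelial cells (log2 ratios 1.19, 1.38, 0.82 and 1.70). Pgf was at 7.82 CPM [6.23-9.69], 20.3 and 54.8 CPM [50.2-59.7] among Gli1- cells (1.38 and 2.81), but at 17.2, 14.0 and 20.4 CPM among Gli1+ cells, where the intervals overlapped. In Gli1+ cells of 1 sex, Angpt2 had ratios of 2.34 and 1.45, and Pgf of 1.15 and -0.72. Averaging each cell's own CPM in place of summing UMIs brought the Angpt2 ratios to 0.56 at 7 dpi and 0.73 at 21 dpi in Gli1+ cells and to 0.73 in Gli1- cells at 21 dpi, all below 2-fold, and those of Pgf in Gli1- cells to just short of 2-fold at 7 dpi and 1.78 at 21 dpi. With all barcodes the Pgf ratio at 7 dpi was 0.59.

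**Figure D4:**
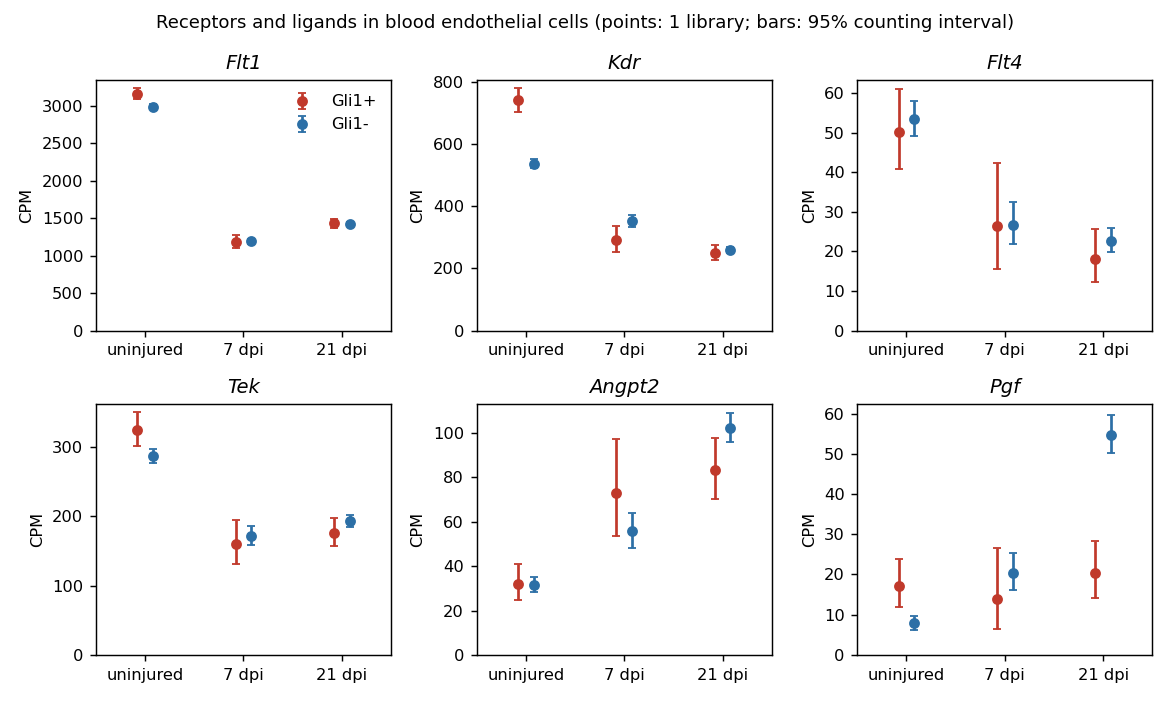
CPM (y axis) of Flt1, Kdr, Flt4, Tek, Angpt2 and Pgf in blood endothelial cells at each time point (x axis), for Gli1+ and Gli1- libraries (points) with exact 95% counting intervals (bars). The 4 receptors are highest in uninjured tendon, Angpt2 is lowest there in both sorts, and Pgf reaches 54.8 CPM among Gli1- cells at 21 dpi.

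Vegfc in injured blood endothelium was lower, with 66.9, 45.2 and 29.1 CPM among Gli1+ and 68.7, 39.3 and 42.0 CPM among Gli1- cells, past 2-fold in Gli1+ cells at 21 dpi (log2 ratio -1.20). That call ended with all barcodes (-0.84), with doublets kept (just short of 2-fold) and with means of cell CPM (-0.64), while Gli1+ cells of 1 sex at 7 dpi had -1.26 and Gli1- cells at 7 dpi -1.10 with classes from each cell's own markers. Vegfa was low there throughout (9.35 to 17.1 CPM). Its Gli1+ log2 ratios were 0.87 and 0.69, with 19 UMIs in uninjured tendon and 11 at 7 dpi. They were 1.703 and 1.835 with means of cell CPM, and -0.76 and 1.96 in cells of 1 sex. Joint clustering gave 1.37 at 7 dpi. The mesenchymal tracers Dcn, Lum, Col1a2 and Pdgfra stood in blood endothelial cells at up to 24.3% of their mesenchymal level in Gli1+ cells at 7 dpi and up to 16.5% in Gli1- cells at 7 dpi, against 2.81% to 7.99% in the other libraries. Vegfd (4.10 to 10.2 CPM) and Angpt1 (3.58 to 12.5 CPM) were at 0.376 to 1.42 and 0.672 to 1.23 times the tracer level in the Gli1- libraries and Gli1+ 7 dpi, and are read there as background. Pgf was at 2.19, 8.16 and 48.9 times that level in the Gli1- libraries.

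Gli1- endothelium was numerous enough to divide into 4 clusters, which were named by leading genes: Timp4 and Gpihbp1 (1887, 432 and 294 cells in uninjured tendon, 7 dpi and 21 dpi), Dach1 and Ccdc85a (933, 150 and 298), Gkn3 and Sema3g (573, 147 and 243) and the adhesion molecules Selp and Sele (119, 248 and 788). Gpihbp1 is a capillary gene, Sema3g an arterial one, and Selp is known from venules. The Selp/Sele-led cells were thus 119 of 3512 uninjured blood endothelial cells and 788 of 1623 at 21 dpi. They formed cluster 8 of the coarser division, with a median of 7943 UMIs per cell, against 2256.5 in cluster 0, which held the others.

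The highest Angpt2 and Pgf values after injury were in the Selp/Sele-led cluster. There Angpt2 was at 20.4, 83.4 and 125 CPM (log2 ratio 2.03, interval 1.33 to 2.82, at 7 dpi and 2.62, interval 1.95 to 3.38, at 21 dpi) and Pgf at 5.66, 25.6 and 64.7 CPM (2.18 and 3.52). The uninjured values of this cluster rest on 119 cells, and that of Pgf on few UMIs. In the Timp4/Gpihbp1-led cluster Angpt2 was at 37.3, 27.6 and 26.2 CPM, in the Dach1/Ccdc85a-led cluster at 33.4, 13.0 and 7.06 CPM and in the Gkn3/Sema3g-led cluster at 18.6, 6.78 and 5.21 CPM, below its uninjured level in all 3, from 3 or 4 UMIs after injury in the latter pair. Pgf was at 9.51, 17.0 and 10.5 CPM, at 7.55, 17.3 and 12.4 CPM and at 4.29, 4.52 and 20.8 CPM in the same clusters, from 2 to 16 UMIs after injury. Its intervals overlapped those of uninjured tendon except in the Gkn3/Sema3g-led cluster at 21 dpi (log2 ratio 2.28, interval 1.01 to 3.64).

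The receptors behaved otherwise inside clusters than in the class. Flt1 was lower at 7 dpi in all 4 clusters, at 3092, 1805 and 3307 CPM in the Timp4/Gpihbp1-led, 4282, 2384 and 3543 CPM in the Dach1/Ccdc85a-led, 2324, 1562 and 2160 CPM in the Gkn3/Sema3g-led and 1139, 713 and 1047 CPM in the Selp/Sele-led cluster. The log2 ratios ran from -0.84 to -0.57 at 7 dpi and from -0.27 to 0.10 at 21 dpi, against -1.07 for the class at 21 dpi. Kdr was at 665, 570 and 497 CPM in the Timp4/Gpihbp1-led and at 192, 258 and 218 CPM in the Selp/Sele-led cluster, whose level was the lowest at each time. Tek was lower at 7 dpi in all 4 clusters and between its uninjured and 7 dpi levels at 21 dpi. Vegfc belonged mainly to the Gkn3/Sema3g-led cluster, at 216, 151 and 187 CPM.

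**Figure D5:**
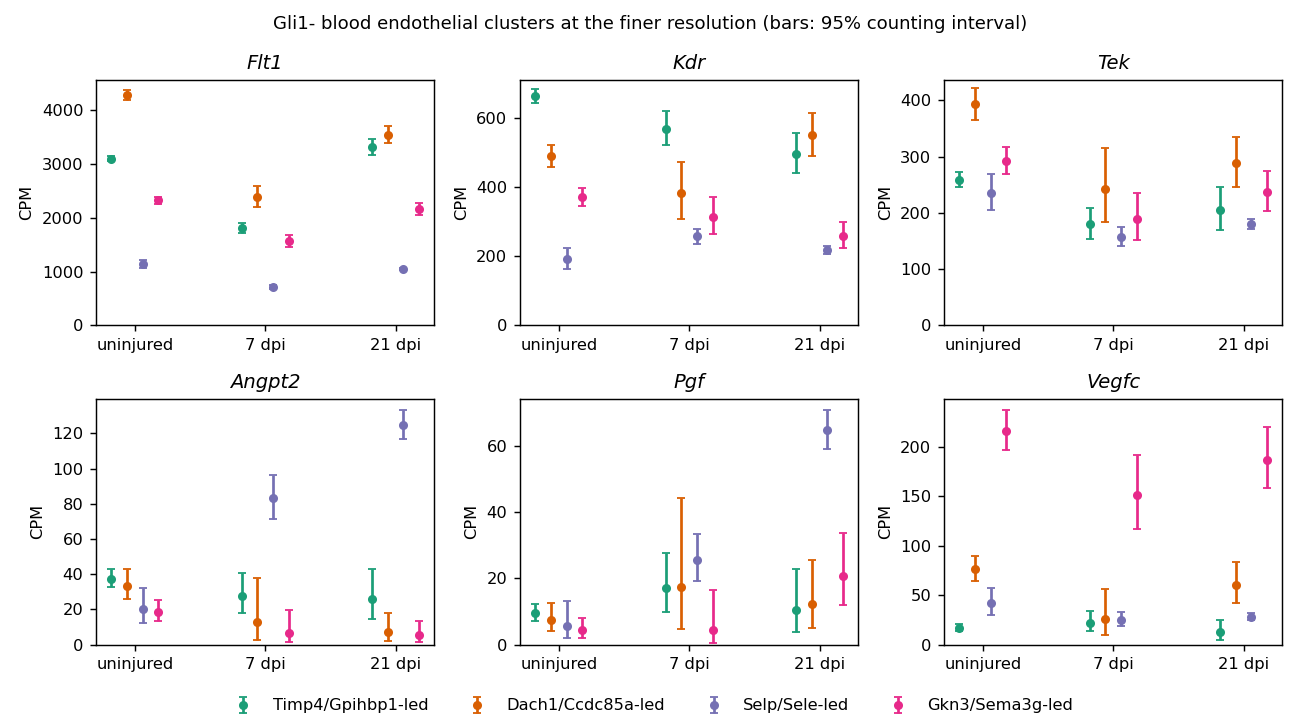
CPM (y axis) of 6 genes in the 4 Gli1- blood endothelial clusters (colors) at each time point (x axis), with exact 95% counting intervals (bars). Flt1 dips at 7 dpi in every cluster, Angpt2 and Pgf are higher after injury in the Selp/Sele-led cluster, and Vegfc is highest in the Gkn3/Sema3g-led cluster.

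Lymphatic endothelial cells kept their Flt4. It stood at 446, 408 and 408 CPM in the Gli1- libraries (120, 67 and 225 cells), and 55.1%, 56.7% and 52.6% of cells thinned to 2000 UMIs held a Flt4 UMI (72.5% to 80.6% unthinned). Kdr was at 483, 230 and 268 CPM and Tek at 124, 48.3 and 87.1 CPM, lowest at 7 dpi. Angpt2 was higher after injury here too, at 49.4, 143 and 105 CPM (log2 ratios 1.53 and 1.09).

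Members past 2-fold were counted beside all genes. A gene counts as past 2-fold where its log2 ratio is at least 1 or at most -1, among genes with 20 or more UMIs over both libraries. In mesenchymal cells 2 of 10 members were past 2-fold lower in Gli1+ cells at 7 dpi (Pgf and Tek) and none higher, where 19.9% of 17831 genes were lower and 16.6% higher. Angpt2, at 2.75 CPM, was just short of 2-fold higher there (0.98). Under some alternatives, though not all, it was past 2-fold, from 1.12 with joint clustering to 1.64 in cells of 1 sex. At 21 dpi 4 were lower, of which Kdr and Flt1 are at background level, and none higher, beside 20.1% and 10.2% of all genes. In Gli1- cells 5 were lower and none higher at 7 dpi (16.5% and 16.3% of all genes), with Kdr, Flt1 and Flt4 at 0.788 to 14.9 CPM among them, and 4 were lower and Vegfc higher at 21 dpi (17.9% and 14.0%). Kdr and Flt1, read as background, were among the lower members of Gli1- cells at both times. The median log2 ratio of the members was -0.70, -0.90, -0.97 and -0.88 in these comparisons, against -0.13, -0.29, -0.06 and -0.13 over all genes. These medians of the members include Kdr and Flt1 at background level and Flt4 at 0.367 to 1.69 CPM. They therefore do not describe the other members alone, whose median was not computed.

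In blood endothelial cells, 9 members had enough UMIs in Gli1+ cells. At 7 dpi 4 were past 2-fold lower (Vegfd, Tek, Kdr and Flt1) and Angpt2 higher, beside 13.2% of all genes lower and 11.7% higher. Vegfd went from 21 to 3 UMIs, of which only the 7 dpi level is read as background. At 21 dpi 4 were lower (Vegfc, Kdr, Flt1 and Flt4) and Angpt2 higher, beside 15.3% and 9.46%. In Gli1- cells Flt1 was lower and Vegfd and Pgf higher at 7 dpi (9.69% of all genes lower, 10.4% higher), with Vegfd at a level read as background and at a log2 ratio of 0.42 in place of 1.17 with all barcodes, which also ended the Pgf call, and Kdr, Flt1 and Flt4 were lower and Pgf and Angpt2 higher at 21 dpi (15.9% and 10.7%). The members' medians were -0.92, -0.89, -0.20 and -0.36, against -0.06, -0.14, -0.06 and -0.14 over all genes.

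Whole libraries mixed these levels with cell numbers, and there fewer cells of a class and less RNA per cell cannot be told apart. Flt1 stood at 109, 14.2 and 54.0 CPM among Gli1+ and 707, 63.7 and 194 CPM among Gli1- libraries, Kdr at 26.4, 3.94 and 6.02 CPM and 133, 18.6 and 30.9 CPM, and Flt4 at 3.66, 0.848 and 1.38 CPM and 18.5, 3.70 and 7.94 CPM. Blood endothelial cells were 5.26%, 1.72% and 2.60% of Gli1+ and 32.3%, 9.85% and 14.9% of Gli1- cells. Past 2-fold against uninjured tendon were 6 members in Gli1+ libraries at 7 dpi and 6 at 21 dpi, with Vegfd and Angpt1 higher and the 4 receptors lower, beside 41.8% and 39.4% of all genes past 2-fold in either direction. With TMM factors, an alternative scaling, the 6 at 21 dpi became Vegfc, Vegfd, Angpt1 and Angpt2 higher and Kdr and Flt4 lower, so that Tek and Flt1 were no longer past 2-fold. The Flt1 call also ended with all barcodes (-0.86) and with doublets kept (-0.97), where Angpt2 was past 2-fold higher (1.061 and 1.035). In Gli1- libraries 5 members were past 2-fold at each time, Pgf and the 4 receptors, all lower, beside 21.8% and 19.2% of all genes past 2-fold lower. Of these calls Pgf at 7 dpi ended with means of cell CPM (-0.99 in place of -1.74), and Flt4 at 21 dpi with means of cell CPM (-0.92 in place of -1.22) and, just short of 2-fold, with TMM factors. Between the sorts, 8 members were past 2-fold lower in Gli1+ than in Gli1- libraries of uninjured tendon, all but Vegfa and Vegfc, and 5 at 7 and at 21 dpi, Angpt2 and the receptors, beside 13.4%, 4.49% and 6.11% of all genes past 2-fold lower. The uninjured libraries also differed in sex and in lymphoid cells. In uninjured mesenchymal cells 3 members were lower (Kdr, Flt1 and Flt4) and Vegfc higher, beside 1057 and 1855 of 16271 genes. In uninjured blood endothelial cells 0 were lower, with Vegfd and Pgf higher, beside 710 and 720 of 13151 genes.

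Co-receptors and related proteins were followed as lists chosen for this pathway. Of the other ligands and co-receptors, 5 of 6 genes had enough UMIs in blood endothelium, and the same 2 were past 2-fold lower in all 4 comparisons with uninjured tendon, beside 13.2%, 15.3%, 9.69% and 15.9% of all genes. Nrp1, a VEGF co-receptor, was at 795, 349 and 233 CPM among Gli1+ and 826, 375 and 250 CPM among Gli1- cells (log2 ratios -1.19, -1.77, -1.14 and -1.73). Ptprb, the phosphatase that opposes Tek, was at 1353, 489 and 572 CPM and 1272, 584 and 599 CPM (-1.47, -1.24, -1.12 and -1.09). Nrp2 (238 to 291 CPM), Tie1 (138 to 206 CPM) and Vegfb (6.31 to 20.2 CPM) were not past 2-fold.

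Of the angiogenesis inhibitors, 4, 5, 4 and 5 of 7 genes were past 2-fold higher in blood endothelium (Gli1+ 7 and 21 dpi, Gli1- 7 and 21 dpi) and 1 lower in the last, beside 11.7%, 9.46%, 10.4% and 10.7% of all genes higher and 13.2%, 15.3%, 9.69% and 15.9% lower. Col18a1, the source of endostatin, was at 29.5, 361 and 469 CPM among Gli1+ and 21.8, 368 and 595 CPM among Gli1- cells (log2 ratios 3.61, 3.99, 4.07 and 4.77). Thbs1, which blocks angiogenesis through CD36 and CD47, was at 19.2, 204 and 197 CPM and 29.0, 160 and 247 CPM. Sema3a was at 4.92, 26.5 and 28.5 CPM and 6.40, 20.9 and 72.7 CPM. Thbs2, counted among those higher in each comparison with uninjured tendon, was at 0.73 to 1.24 times the mesenchymal tracer level in these cells. Timp3, which blocks Vegfa binding to Kdr, was lower in mesenchymal cells, at 797, 150 and 220 CPM among Gli1+ and 1038, 207 and 223 CPM among Gli1- cells (-2.41, -1.86, -2.33 and -2.22). In mesenchymal cells 2, 2, 3 and 4 inhibitors were past 2-fold higher and 1, 1, 1 and 2 lower, beside 10.2% to 16.6% and 16.5% to 20.1% of all genes, with Thbs2 higher in each comparison (216, 683 and 486 CPM among Gli1+, 171, 650 and 412 CPM among Gli1- cells).

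Sprouting and tip cell genes were past 2-fold higher for 2 of 6, 2 of 6, 3 of 7 and 5 of 7 genes tested in blood endothelium, and lower for 2, 1, 0 and 1, against the same shares of all genes (9.46% to 11.7% higher and 9.69% to 15.9% lower). Apln, the apelin of tip cells, was at 2.46, 53.0 and 79.7 CPM among Gli1+ and 3.01, 69.0 and 89.7 CPM among Gli1- cells, and the basement membrane gene Nid2 at 16.2, 59.2 and 58.7 CPM and 20.6, 58.3 and 71.2 CPM. Dll4, the Notch ligand induced by VEGF, was at 127, 91.9 and 90.2 CPM and 118, 61.0 and 81.7 CPM, below 2-fold. Of 8 endothelial maturity and signal genes, only the apelin receptor Aplnr was higher in each comparison (36.9, 132 and 116 CPM, and 60.4, 257 and 141 CPM), and 2, 0, 0 and 1 were lower.

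In blood endothelium 0 of 9 hypoxia-induced genes tested were past 2-fold higher and 1, 3, 3 and 3 lower, beside 9.46% to 11.7% and 9.69% to 15.9% of all genes. Bnip3 was at 76.8, 28.0 and 23.3 CPM among Gli1+ and 83.9, 28.6 and 35.3 CPM among Gli1- cells. In mesenchymal cells 2, 2, 3 and 3 of 10 were higher and 3, 3, 2 and 1 lower, with the glycolytic enzyme Ldha higher (126, 339 and 256 CPM, and 123, 334 and 268 CPM) and the vasodilator peptide Adm at 71.7, 37.0 and 35.3 CPM and 268, 58.8 and 38.0 CPM. The list's median log2 ratios in mesenchymal cells were -0.10, 0.22, 0.18 and 0.56, against -0.13, -0.29, -0.06 and -0.13 over all genes, of which 16.6%, 10.2%, 16.3% and 14.0% were past 2-fold higher and 19.9%, 20.1%, 16.5% and 17.9% lower.

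The genes for VEGF-C processing and the lymphatic factors gave few counts. Counts are read against 16.6%, 10.2%, 16.3% and 14.0% of all genes higher and 19.9%, 20.1%, 16.5% and 17.9% lower in mesenchymal cells, and 11.7%, 9.46%, 10.4% and 10.7% higher and 13.2%, 15.3%, 9.69% and 15.9% lower in blood endothelium. In mesenchymal cells 0, 0, 1 and 1 of 4 processing genes were higher (Adamts3, the VEGF-C protease, in Gli1- cells) and 0, 0, 1 and 0 lower (its cofactor Ccbe1, 153 and 60.6 CPM in uninjured and 7 dpi Gli1- cells). In blood endothelium 1 of 1, 1 of 1, 4 of 4 and 1 of 4 were higher, with Adamts2 and Ccbe1 at or below the mesenchymal tracer level. Lymphatic factors were higher for 3 of 5, 1 of 3, 2 of 5 and 1 of 5 genes in blood endothelium, Lyve1 among them in each and Pdpn, below the mesenchymal tracer level, at 7 dpi, and for 0, 0, 0 and 1 of 5 in mesenchymal cells, where 2, 1, 0 and 0 were lower. In mesenchymal cells Tie1 and the phosphatase Ptprb were lower in Gli1- cells at both times, and Tie1 was higher in Gli1+ cells from 2 UMIs in the uninjured library. Sprouting genes were higher for 1 gene in each comparison (Apln) and lower for 1, 1, 2 and 3, and endothelial maturity genes were higher for 4, 4, 1 and 1 and lower for 2, 0, 5 and 4. No tracer level was computed for these genes in mesenchymal cells, so free RNA may add to their counts.

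The genes most like each member were found by Pearson correlation of log2(CPM + 1) over 43 class-by-library sums. These points share libraries, depth and free RNA, so the coefficients are descriptions. Kdr was most like Podxl (0.98), Unc45b and Rasip1 (0.97 each), Flt1 like Adgrf5 (0.96), Esam and Fabp4 (0.95 each), Flt4 like Klhl4 (0.94), Tal1 (0.93) and Cldn5 (0.92), and Tek like Hspa12b, Unc45b (0.90 each) and Ace (0.89). Angpt2 was most like Arhgef7 (0.95), the gap junction gene Gja4 and Gm26632 (0.93 each), and Angpt1 like the mesenchymal transcription factors Tbx15 (0.93), Hoxa10 and Prrx1 (0.89 each). The VEGF ligands had weaker partners: Vegfc with Mecom (0.86), Zfp697 (0.80) and Sybu (0.78), Pgf with Lrrc32 (0.81), Tfpi (0.80) and Eln (0.78), Vegfd with Gstm2 (0.78), Txn1 (0.76) and Cyp1b1 (0.75), and Vegfa with Il17d, Uap1 and Ugp2 (0.74 each).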

How the data were processed

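The authors sorted cells from 24 mice, made 10x 3' libraries and deposited raw counts, the UMIs of each of 33696 genes per cell barcode, without normalization. Per the labels' processing notes the reads went through Cell Ranger 3.1.0 and STAR on mm10, but the file headers name Cell Ranger 9.0.0, so no coordinates of the files are given.

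Cells were kept with 200 genes or more, 1000 UMIs or more, a log10 gene to log10 UMI ratio of at least 0.7, and at most 5% mitochondrial and 5% hemoglobin UMIs, following the study's methods. DoubletFinder was not used here; the Scrublet method in scanpy 1.11.5 removed the highest-scoring cells at 0.8% per 1000 cells, and no barcode shared between libraries was removed. Each sort was clustered on its own (10000 counts per cell, log scale, 2000 variable genes, 30 components, 20 neighbors, Leiden resolution 0.5, finer 1.0), with Python 3.11.15, numpy 2.4.6, scipy 1.17.1 and leidenalg 0.10.2. Markers and members were kept out of the variable genes. Classes other than mesenchymal were named from marker lists where at least 3 markers were raised by at least 1 log2 unit. Mesenchymal clusters were those that matched no such list, held at least 100 CPM of Pdgfra and had no more markers of another class than mesenchymal ones among their 10 leading genes; most had under 3 mesenchymal markers raised over the other cells. These thresholds were set after seeing the data. Levels are UMIs summed over a class (at least 50 cells) per 1000000, and a library at 0 was set to 3 counts for ratios. With 1 library per condition no test was run, since cells are not replicates, and intervals ignore any reads that PCR or sampling made dependent. The calculation was tested on simulated data.

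The 10 members, the gene lists and the markers were chosen with earlier results of these data known. Named beyond the members were the 3 genes most like each one (among genes of at least 20 CPM in 1 sum) and genes of the lists. Alternatives were all barcodes, doublets kept, resolutions 0.3 and 1.0, joint clustering, TMM factors (edgeR 4.0.16 in R 4.3.3), means of cell CPM, no count filter, classes from each cell's markers, thinning to 1000 UMIs and, added after seeing the data, cells of 1 sex.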

Additional observations from a re-analysis of the deposited data

Results flagged for a closer look

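Whole libraries, mesenchymal cells and blood endothelial cells were searched for opposite directions in the sorts, where both intervals had to exclude 0. Other classes were not searched. In 6 cases a member was above its uninjured level in the Gli1+ library or class and below it in the Gli1- one. These opposite directions rest on 1 library per condition, and the difference was not tested. Over whole libraries at 7 dpi, Vegfa had a log2 ratio of 0.33 in Gli1+ and -0.46 in Gli1- cells, and Vegfc of 0.53 and -0.47. Over whole libraries at 21 dpi, Vegfa had 0.48 and -0.53, and the X-linked Vegfd 1.83 and -0.42. The uninjured Gli1+ library held 41.5% lymphoid cells, which had Vegfa at 6.96 CPM, and their part in these values was not tested. In mesenchymal cells alone Vegfa was lower after injury in both sorts, with -0.78 and -0.84 at 7 dpi. Within mesenchymal cells, Angpt1 at 7 dpi had 0.21 in Gli1+ and -0.15 in Gli1- cells, and Vegfd at 21 dpi had 0.33 and -0.57; the uninjured Gli1+ library held both sexes and those at 21 dpi almost only cells with Xist. In cells of 1 sex the Gli1+ values were -0.01 for Angpt1 and 0.30 for Vegfd.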

How the results depend on the processing

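No paired analysis was run, and each sort and time point has 1 library. Pgf and Tek were past 2-fold lower in mesenchymal cells in all 4 comparisons under every alternative run. The count of members past 2-fold in mesenchymal cells was 2 for Gli1+ 7 dpi, and became 4 with means of cell CPM, 4 with classes from each cell's own markers and 5 in cells of 1 sex; for Gli1+ 21 dpi it was 4, and became 2 with TMM factors and 2 with classes from each cell's own markers. In blood endothelial cells the count was 5 for Gli1+ 21 dpi, and 3 with all barcodes and 3 with doublets kept; 3 for Gli1- 7 dpi, and 5 with doublets kept; 5 for Gli1- 21 dpi, and 3 with TMM factors and 2 with means of cell CPM, where Flt1 had a log2 ratio of -0.95 and -0.55. The other 101 counts stayed within 1.5 times. Of the log2 ratios under alternatives, 837 stayed inside the counting interval of the reported value, 272 lay outside it, and of those past 2-fold 1 changed sign: Flt1 in Gli1+ mesenchymal cells at 21 dpi was at 0.35 with classes from each cell's own markers (-1.20 otherwise), a level read as background. Against uninjured tendon, TMM factors shifted the median of all genes by 0.22 to 0.37 log2 units over whole libraries, 0.08 to 0.32 in mesenchymal and 0.03 to 0.14 in blood endothelial cells; the share of calls that were higher went from 33.6% to 51.8% in Gli1+ mesenchymal cells at 21 dpi and, over whole libraries, from 33.6%, 26.2%, 37.5% and 39.6% to 47.7%, 45.2%, 49.5% and 51.1%. Of shares of a member's UMIs 115 stayed inside their interval and 65 did not, and of shares of cells with a UMI, thinned to 1000 UMIs, 47 and 133. The causes of these changes were not tested.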
